A study of Drosophila melanogaster with 18 samples.

Results

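The genes described here encode proteins of the mitochondrial ribosome. They were taken by name, as every gene entry of the deposited count table whose FlyBase symbol starts with mRpL or mRpS, with no use of the measured values. Of 17753 gene entries, 72 met the rule, 47 mRpL genes for the large subunit and 25 mRpS genes for the small subunit. All 72 passed the filter on low counts. RNA came from DL1, a fly cell line with features of haemocytes (blood cells) whose genotype is labelled WT, and was sequenced after depletion of ribosomal RNA. There were 6 groups of 3 libraries, with 1 library of each group in each of the replicate sets A, B and C, which the labels call biological replicates. Mock cells had no double-stranded RNA (dsRNA). Cells of the other groups took up 2 µg of dsRNA from the medium and were grown for 3 days, with dsRNA against B-gal as the control (a bacterial gene that fly cells lack), or against IntS4, IntS6, mts or Pp2A-29B. IntS4 and IntS6 encode subunits of Integrator, which cuts nascent RNA and ends transcription early at many genes. The phosphatase PP2A, which binds Integrator, has its catalytic subunit from mts and its scaffold from Pp2A-29B.

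Mitochondria keep their own ribosome, which makes the few proteins still encoded by mitochondrial DNA, all of them parts of the oxidative phosphorylation complexes. Its RNAs are transcribed in the organelle, while its proteins are encoded in the nucleus, made in the cytosol and imported. Some of these proteins descend from those of bacterial ribosomes and carry their numbers, and others were added in the course of mitochondrial evolution. By their numbers, 28 of the 47 mRpL genes (up to mRpL36) and 13 of the 25 mRpS genes (up to mRpS21) belong to bacterial families, and 19 and 12 carry higher numbers. These are classes of numbers, and a higher number does not by itself show that a protein was added in mitochondria. The protein of mRpS24, for example, is the counterpart of bacterial S3 in spite of its number. The mammalian counterparts of mRpS18A and mRpS30 sit in the large subunit. The genes tko and bonsai encode the counterparts of bacterial S12 and S15 and fall outside the rule, so they are given further on.

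The 72 genes are dispersed over the genome, with 12 on chromosome arm 2L, 12 on 2R, 16 on 3L, 21 on 3R and 11 on X in the Ensembl 115 annotation of BDGP6, whose coordinates are those of dm6. They are short, with a median of 783 exonic bases (327 to 2078) against 1734 for all 13845 protein-coding genes of the table, and have a median of 2 exon blocks against 3. A protein-coding gene on the opposite strand started within 500 bases of the start of 52 members (72.2%), against 26.4% of protein-coding genes (3660). No member lay within 5000 bases of an snRNA gene, a class of gene whose transcripts Integrator cuts. Of the members, 42 overlapped a gene on the opposite strand, 3 a gene on the same strand and 29 none. Some of these overlaps were as short as 3 bases, and the share of all genes with an overlap was not computed. The libraries were strand-specific per the labels' protocols, but the sources used here do not give the strand setting of the counting, so reads of such neighbours may not have been told apart.

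Libraries held 13445318 to 19298644 counts, of which 65.1 to 74.8% were ribosomal RNA, with the highest shares in the mts libraries. The 72 members together held 5074 to 8828 counts per library, and their median count per library ran from 53.5 to 105.0. Each member had at least 1 count in every library, and the highest single value was 508 (mRpS30, Mock set B). The transcripts of mts and Pp2A-29B fell with their own dsRNA, to log2 fold changes of -1.23 and -1.78 against B-gal. Those of IntS4 and IntS6 were instead higher in the libraries labelled with their own dsRNA (3.02 and 1.50). The counts thus do not show these depletions, and the groups are called IntS4-labelled and IntS6-labelled. Whether reads of the added dsRNA itself are part of these whole-gene counts was not tested. Levels are given in CPM, the count relative to the scaled library total with ribosomal RNA included, always in the order of sets A, B and C. A gene is called higher or lower at an adjusted p under 0.05, from edgeR's quasi-likelihood test on 1 fit of all 18 libraries with Benjamini-Hochberg adjustment over the 8699 genes tested.

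Set A stood apart in the control libraries, for these genes and also for those of cytosolic ribosomal proteins and oxidative phosphorylation. The summed level of the members was 534, 484 and 468 CPM in Mock and 528, 452 and 456 CPM in B-gal, so the set A library was the highest in each. Cytosolic ribosomal protein genes summed to 36080, 32310 and 29120 CPM in Mock and 34630, 30000 and 26920 CPM in B-gal. For oxidative phosphorylation genes the sums were 3219, 2910 and 2968 CPM in Mock and 3152, 2836 and 2919 CPM in B-gal. Between B-gal and Mock no member was called (0 of 72 higher and 0 of 72 lower). The background in that comparison was 0.0% of genes in each direction, and the median log2 difference, B-gal minus Mock, was -0.07 for the members and 0.00 for all genes. At an unadjusted p under 0.05 there were 1 member and 243 of all 8699 genes, and DESeq2 called 0 members too. All B-gal libraries were above all Mock libraries for 0 members and below for 3, against 3.35% and 3.32% of all genes. Values against B-gal are therefore also given within sets or without the set A control where they turn on it.

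Per kilobase of exon, the members spanned a 15.6-fold range in B-gal libraries, from 1.28 CPM per kb for mRpL41 to 20.0 for mRpL42, with a median of 6.89. The median of the mRpL genes was 6.01 and that of the mRpS genes 7.97 CPM per kb. After mRpL42 came mRpL10 (18.0 ± 2.22 CPM per kb), part of the stalk that recruits translation factors, and mRpS7 (17.8 ± 1.49), mRpS10 (15.4 ± 0.930) and mRpS22 (15.3 ± 0.885; SD, n = 3 each). Of the 71 neighbouring pairs in this order, only 1 had B-gal libraries that did not overlap, so the order is a gradient and not a set of steps. Among 8030 tested protein-coding genes, the members lay between percentiles 21.0 and 87.8, with a median at 62.0, and 0 were in the top 10%.

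The summed level of the 72 genes was lower in the Integrator-labelled libraries than in every B-gal library. It was 400.5, 400.4 and 367 CPM with IntS4-labelled dsRNA and 416, 388 and 397 CPM with IntS6-labelled dsRNA, or 81.4% and 83.6% of the B-gal mean. With mts dsRNA the sum was 439, 437 and 429 CPM (90.9%), and with Pp2A-29B dsRNA it was 451, 439 and 455 CPM (93.7%). The mts libraries lay below all B-gal libraries by a narrow margin, and the Pp2A-29B libraries overlapped them. By summed level, the mRpS genes stood lower than the mRpL genes against B-gal in each group. The sums were at 74.1% against 86.4% (IntS4-labelled), 76.7% against 88.3% (IntS6-labelled), 83.7% against 95.8% (mts) and 89.6% against 96.5% (Pp2A-29B). Such sums weigh the genes with high counts most. Median log2 fold changes of the mRpS and mRpL genes were nearly alike in the IntS4-labelled group, at -0.33 and -0.31. They were -0.38 and -0.27 (IntS6-labelled), -0.17 and -0.08 (mts) and -0.10 and -0.04 (Pp2A-29B). A difference between the subunits was not tested. In a culture measured in bulk, fewer cells of a type and less RNA per cell cannot be told apart.

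**Figure D1:**
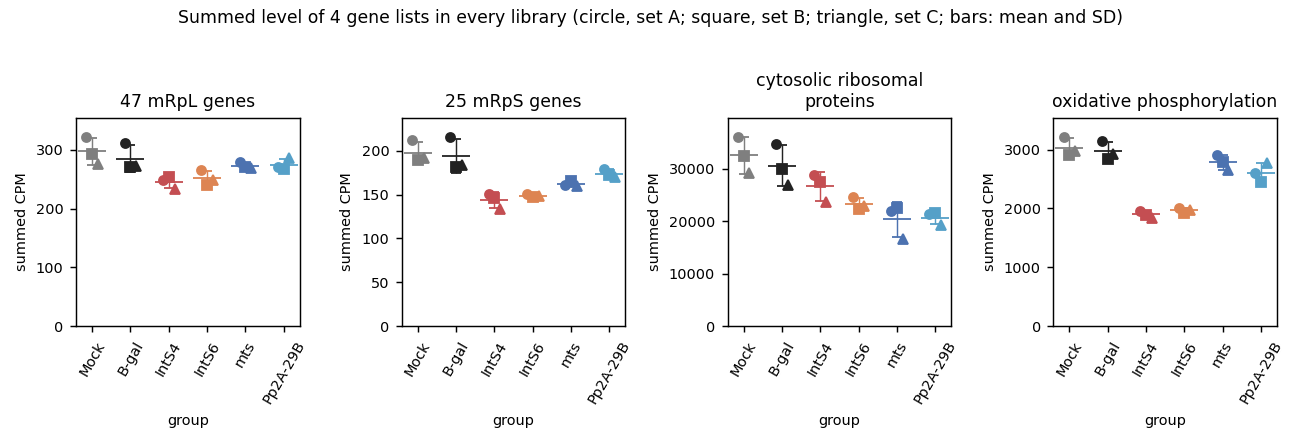
Summed CPM in every library (vertical axes, from 0) by group (horizontal axes) for the mRpL genes, the mRpS genes, cytosolic ribosomal protein genes and oxidative phosphorylation genes; points are libraries, bars the mean and SD of 3. The mRpS sums of both Integrator-labelled groups lie between 133 and 151 CPM, below the 181 to 216 CPM of the B-gal libraries.

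With IntS4-labelled dsRNA, 21 of the 72 members were called lower and 1 higher, against a background of 20.2% of all genes lower and 27.0% higher. The share called lower (29.2%) was thus somewhat above the background, and the share called higher (1.39%) was far under it. The median log2 fold change was -0.32, against -0.01 for all genes, and 64 members had a value below 0. With IntS6-labelled dsRNA, 16 were called lower (22.2%, background 19.3%) and 1 higher (1.39%, background 26.4%), with a median of -0.30 against -0.01 for all genes and 62 values below 0. In both groups the median over members was below 0 within each replicate set, at -0.38, -0.14 and -0.29 (IntS4-labelled) and -0.32, -0.25 and -0.19 (IntS6-labelled) for sets A, B and C. Without the B-gal library of set A the medians were -0.18 in each group, and 15 and 11 members were called lower. All IntS4-labelled libraries were below all B-gal libraries for 33 members and above for 2, against 23.9% and 29.6% of all genes. For the IntS6-labelled libraries the counts were 24 below and 0 above, against 23.8% and 28.4%. The comparisons of the 4 dsRNA groups share the 3 B-gal libraries, so their values are set side by side and their likeness is not read as support.

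The lower members belonged to all classes. Among the 28 mRpL genes of bacterial families, 7 were called lower in the IntS4-labelled group (mRpL1, mRpL9, mRpL14, mRpL15, mRpL18, mRpL23 and mRpL27) and 4 in the IntS6-labelled group. Among the 19 mRpL genes with higher numbers, 7 and 3 were called lower. Of the 13 mRpS genes of bacterial families 3 and 4 were lower, and of the other 12 mRpS genes 4 and 5. As shares of these classes, in this order, 25.0, 36.8, 23.1 and 33.3% were lower in the IntS4-labelled group, against 20.2% of all genes. In the IntS6-labelled group the shares were 14.3, 15.8, 30.8 and 41.7%, against 19.3%. Both mRpL classes were thus under the background there, and the difference between the classes was not tested. Those lower in both were mRpL1 (the mobile stalk beside the tRNA exit), mRpL18, mRpL23 (at the tunnel exit in bacteria), mRpL44, mRpL54, mRpL55, mRpS7, mRpS10, mRpS18A, mRpS23, mRpS24, mRpS29 (a GTP-binding protein) and mRpS30. Lower in the IntS4-labelled group alone by this call were mRpL50 (-0.81), mRpL15 (-0.78), mRpL27 (-0.59), mRpL51 (-0.59), mRpL39 (-0.55), mRpL14 (-0.52), mRpL48 (-0.44) and mRpL9 (-0.41), and in the IntS6-labelled group alone mRpS33 (-1.12), mRpS11 (-0.50) and mRpL35 (-0.39), in log2 fold change. The direct test between these groups, given further on, called no member.

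**Figure D2:**
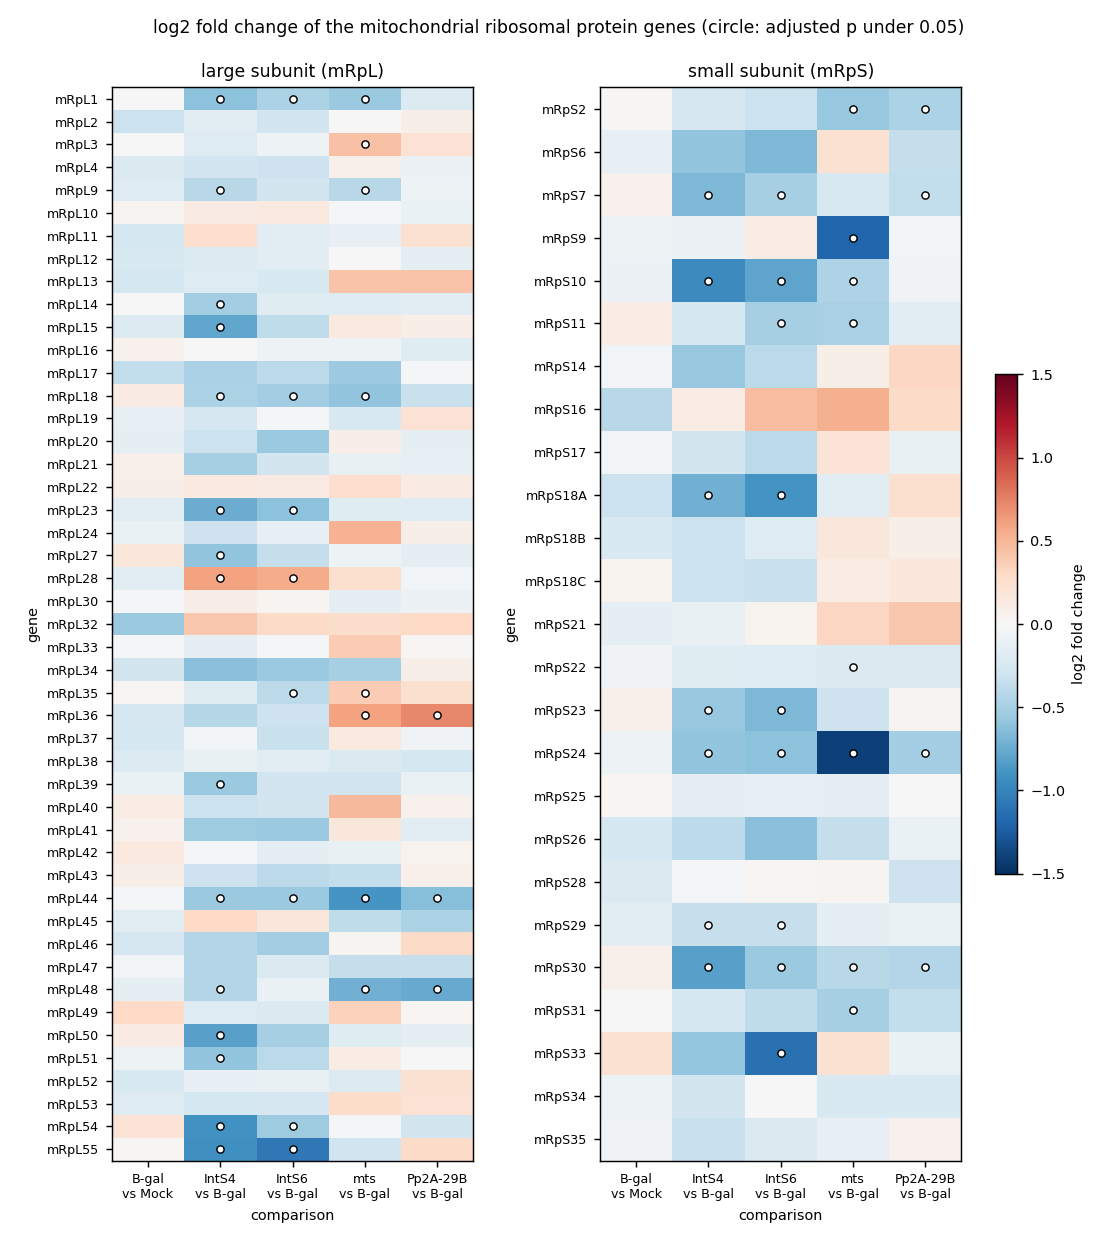
log2 fold change (colour scale) of each of the 72 genes (rows, large subunit at left, small subunit at right) in the comparisons of B-gal with Mock and of each dsRNA group with B-gal (columns); a circle marks an adjusted p under 0.05. Blue prevails in the columns of the Integrator-labelled groups, where mRpL28 carries the only circles on red.

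The lowest called values in the IntS4-labelled group were those of mRpS10, mRpL55, mRpL54 and mRpL50. mRpS10 (chromosome 3R, 15229665 to 15230516, plus strand), the counterpart of a protein in the head of the bacterial small subunit, stood at 12.3, 11.2 and 12.5 CPM in B-gal, 7.00, 6.67 and 4.85 CPM in IntS4-labelled and 6.78, 8.40 and 5.73 CPM in IntS6-labelled libraries. Every Integrator-labelled library was below every B-gal library. The log2 fold changes were -0.96 (SE 0.19, adjusted p = 0.0004) and -0.79 (SE 0.19, adjusted p = 0.0021). mRpL55 (chromosome 3R, 19094394 to 19094905, minus strand), a large-subunit gene with a number above the bacterial families, was at 6.28, 5.34 and 4.01 CPM in B-gal, 2.63, 2.88 and 2.69 CPM in IntS4-labelled and 2.24, 2.85 and 2.30 CPM in IntS6-labelled libraries. These groups did not overlap either, and mRpL55 was at 52.5% and 47.3% of its B-gal level. Its log2 fold changes were -0.92 (SE 0.19, adjusted p = 0.00059) and -1.07 (SE 0.19, adjusted p = 0.00016).

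mRpL54 (chromosome 2R, 21060789 to 21061587, plus strand), another gene with a number above the bacterial families, stood at 5.32, 5.22 and 4.67 CPM in B-gal, 2.19, 3.13 and 2.69 CPM in IntS4-labelled and 3.53, 3.59 and 3.36 CPM in IntS6-labelled libraries. Again every Integrator-labelled library lay below the B-gal libraries, at log2 fold changes of -0.91 (SE 0.18, adjusted p = 0.00037) and -0.54 (SE 0.17, adjusted p = 0.017). mRpL50 (chromosome 3L, 7243080 to 7243933, minus strand) was at 8.53, 6.30 and 5.40 CPM in B-gal and 4.38, 3.99 and 3.08 CPM in IntS4-labelled libraries, which did not overlap, and was called lower there (-0.81, SE 0.22, adjusted p = 0.0044). In the IntS6-labelled libraries it stood at 4.04, 6.58 and 3.75 CPM, with set B inside the B-gal range, and was not called (-0.49, SE 0.21, adjusted p = 0.065).

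The lowest value of any member in the IntS6-labelled group was that of mRpS33 (chromosome 3R, 16436045 to 16436597, minus strand), a small-subunit protein without a bacterial counterpart. It stood at 1.84, 1.19 and 1.56 CPM in B-gal and 0.448, 0.678 and 0.987 CPM in IntS6-labelled libraries. These are low levels, 8 to 15 counts per IntS6-labelled library, and although the groups did not overlap the call (-1.12, SE 0.39, adjusted p = 0.024) was lost without the IntS6-labelled library of set A (-0.86) or B (-1.10) and without the B-gal library of set A (-0.98) or C (-1.10). mRpS18A (chromosome 3R, 8561917 to 8562593, minus strand) was at 6.00, 4.37 and 3.51 CPM in B-gal, 3.43, 2.93 and 2.03 CPM in IntS4-labelled and 2.24, 3.32 and 1.84 CPM in IntS6-labelled libraries. No library of these groups reached the B-gal range, and the log2 fold changes were -0.72 (SE 0.27, adjusted p = 0.034) and -0.90 (SE 0.27, adjusted p = 0.011). The IntS6-labelled call was lost without that group's set C library (-0.74, adjusted p = 0.058) or without the B-gal set A library (-0.68, adjusted p = 0.067).

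Against this direction, mRpL28 was the only member called higher in the Integrator-labelled groups. mRpL28 (chromosome 2L, 4973976 to 4975316, plus strand), of a bacterial large-subunit family, stood at 14.3, 10.4 and 15.1 CPM in B-gal, 21.4, 20.7 and 18.4 CPM in IntS4-labelled and 20.0, 14.8 and 24.0 CPM in IntS6-labelled libraries. The IntS4-labelled libraries were all above B-gal, while the IntS6-labelled set B library fell inside the B-gal range. The log2 fold changes were 0.60 (SE 0.19, adjusted p = 0.012) and 0.56 (SE 0.19, adjusted p = 0.019). Both calls rested on the low B-gal library of set B, without which the values were 0.45 (adjusted p = 0.075) and 0.41 (adjusted p = 0.11), and no member was then called higher in either group. The IntS6-labelled call was also lost without that group's set C library (0.39, adjusted p = 0.12). Mock libraries stood at 15.4, 14.4 and 14.7 CPM.

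**Figure D3:**
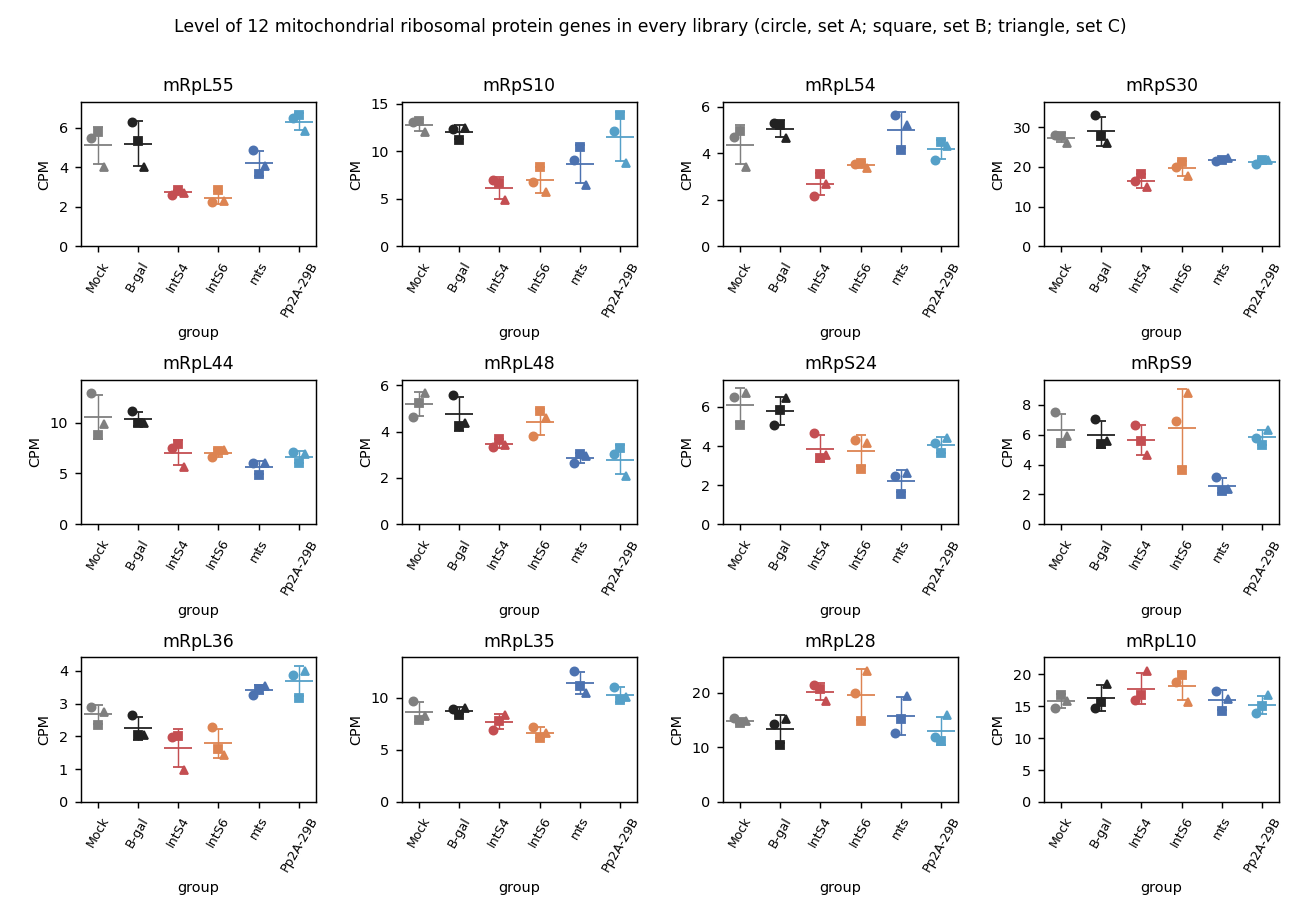
CPM in every library (vertical axes, from 0) by group (horizontal axes) for 12 members; points are libraries, marked by replicate set, and bars the mean and SD of 3. mRpL55, mRpS10 and mRpL54 are low in the Integrator-labelled groups, mRpS24 and mRpS9 are lowest with mts dsRNA, and mRpL36 is high in both PP2A groups.

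With mts dsRNA, 13 members were called lower and 3 higher, and with Pp2A-29B dsRNA 6 and 1. The background was 24.8% lower and 26.6% higher for mts and 17.8% lower and 21.0% higher for Pp2A-29B, so the members' shares lower (18.1% and 8.33%) and higher (4.17% and 1.39%) were all under it. Medians were -0.12 and -0.06, against 0.00 and -0.01 for all genes, and 42 members lay below 0 and 30 above in each group. Within sets A, B and C the medians were -0.21, 0.02 and -0.07 with mts and -0.25, 0.00 and 0.06 with Pp2A-29B dsRNA, so they were clearly below 0 in set A, where the controls were high. Without the B-gal library of set A the medians were 0.00 and 0.06, and 6 members were higher with mts and 2 with Pp2A-29B dsRNA. Without the B-gal library of set B these counts were 1 and 0. The count higher with Pp2A-29B dsRNA was also 0 without the B-gal library of set C or the Pp2A-29B library of set A or C, and the count lower was 3 without the Pp2A-29B library of set B. With no filter on low counts, 8 members were lower with mts and 3 with Pp2A-29B dsRNA. All mts libraries were below all B-gal libraries for 16 members and above for 7 (28.1% and 28.9% of all genes), and the Pp2A-29B libraries for 9 and 3 (22.8% and 25.0%). The mts libraries had the largest share of ribosomal RNA, 73.0 to 74.8% against 66.3 to 71.8% in B-gal. With ribosomal RNA left out of the fit, the mts counts of called members stayed within 1.5 times of those reported and the median within 1 SD. Any other part of this share in the result was not tested.

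A few members fell far more with mts dsRNA than the rest, led by a pair of small-subunit genes. mRpS24 (chromosome 3R, 24162829 to 24163545, minus strand) stood at 5.05, 5.85 and 6.46 CPM in B-gal and 2.44, 1.55 and 2.62 CPM in mts libraries. No mts library came near the B-gal range, and the level was 38.1% of B-gal, or -1.40 (SE 0.22, adjusted p = 3.1e-05) on the log2 scale. mRpS9 (chromosome 3R, 7889277 to 7902667, minus strand), of the bacterial family whose tail reaches the tRNA in the decoding site, was at 7.03, 5.39 and 5.57 CPM in B-gal, 3.15, 2.26 and 2.37 CPM in mts and 5.81, 5.34 and 6.34 CPM in Pp2A-29B libraries. Only the mts libraries were low, at 43.2% of B-gal (-1.19, SE 0.26, adjusted p = 0.00098), and the Pp2A-29B group was not called (-0.04, SE 0.24, adjusted p = 0.93). The exons of mRpS9 overlap those of ArgRS-m on the opposite strand by 325 bases, and ArgRS-m had -0.02 with mts dsRNA. Those of mRpS24 overlap TBC1d7 on the opposite strand by 332 bases, and TBC1d7 had -0.45 there (adjusted p = 0.12).

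mRpL44 and mRpL48, large-subunit proteins without a bacterial counterpart, fell in both PP2A groups. mRpL44 (chromosome 3R, 5469463 to 5470636, minus strand), related in fold to RNase III, stood at 11.2, 9.99 and 9.96 CPM in B-gal, 5.98, 4.87 and 6.00 CPM in mts and 7.11, 6.00 and 6.86 CPM in Pp2A-29B libraries, with no overlap. The log2 fold changes were -0.89 (SE 0.16, adjusted p = 0.00015) and -0.64 (SE 0.15, adjusted p = 0.003). mRpL48 (chromosome 2L, 1710462 to 1711465, plus strand) was at 5.59, 4.26 and 4.40 CPM in B-gal, 2.63, 3.03 and 2.96 CPM in mts and 3.03, 3.29 and 2.07 CPM in Pp2A-29B libraries, which again did not overlap B-gal. Its log2 fold changes were -0.72 (SE 0.18, adjusted p = 0.0031) and -0.76 (SE 0.18, adjusted p = 0.0027). On the opposite strand of mRpL48, the gene frtz, whose exons share 164 bases with it, was lower too, at -0.55 and -0.44.

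mRpS2, of a bacterial small-subunit family (chromosome 2L, 4849439 to 4850419, minus strand), was at 7.85, 5.90 and 7.68 CPM in B-gal, 4.37, 4.23 and 5.91 CPM in mts and 5.99, 4.88 and 4.47 CPM in Pp2A-29B libraries. Both groups overlapped the low B-gal library of set B, and the log2 fold changes were -0.57 (SE 0.17, adjusted p = 0.0084) and -0.48 (SE 0.16, adjusted p = 0.027). The Pp2A-29B call was lost on leaving out the set B or C library of that group (-0.45 and -0.39) or the set A or C library of B-gal (-0.41 and -0.42), with no filter on low counts (adjusted p = 0.066) and in a fit of the compared groups only (adjusted p = 0.067). Other members lower with mts dsRNA were mRpL1 (-0.56), mRpL18 (-0.59), mRpL9 (-0.42), mRpS31 (-0.50), mRpS11 (-0.49), mRpS10 (-0.46), mRpS30 and mRpS22 (-0.22), in log2 fold change. With Pp2A-29B dsRNA, mRpS7 (-0.37) and mRpS30 completed the list.

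The members called higher in the PP2A groups were 3 mRpL genes of bacterial families, a class that holds 28 of the 72 members. Of this class, 10.7% were higher with mts and 3.57% with Pp2A-29B dsRNA, against 26.6% and 21.0% of all genes. The difference between the classes was not tested. mRpL36 (chromosome 3L, 8124584 to 8125132, minus strand), whose bacterial relative is a very small zinc-binding protein, stood at 2.66, 2.04 and 2.06 CPM in B-gal, 3.28, 3.46 and 3.55 CPM in mts and 3.89, 3.16 and 4.01 CPM in Pp2A-29B libraries. Every library of both groups was above every B-gal library, and the log2 fold changes were 0.61 (SE 0.23, adjusted p = 0.037) and 0.72 (SE 0.23, adjusted p = 0.019). With 36 to 63 counts per library, the mts call was lost without any 1 of the mts libraries (0.64, 0.60 and 0.58 without A, B and C) and without the B-gal library of set B (0.54) or C (0.55). The Pp2A-29B call was lost without the Pp2A-29B library of set A (0.68) or C (0.65) and without the B-gal library of set B (0.65) or C (0.66).

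mRpL3 (chromosome X, 15761248 to 15762663, plus strand), among the earliest proteins to join the large subunit in bacteria, was at 11.0, 8.86 and 11.1 CPM in B-gal and 14.3, 13.8 and 13.8 CPM in mts libraries. The mts libraries were all higher (0.44, SE 0.13, adjusted p = 0.0078), and without the B-gal library of set B the value was 0.34 (adjusted p = 0.051). mRpL35 (chromosome 3R, 22023527 to 22024341, plus strand) was at 8.94, 8.35 and 8.96 CPM in B-gal, 12.6, 11.2 and 10.5 CPM in mts and 7.17, 6.10 and 6.65 CPM in IntS6-labelled libraries. It was called higher in the former (0.39, SE 0.12, adjusted p = 0.011) and lower in the latter (-0.39, SE 0.12, adjusted p = 0.013), with no overlap with B-gal on either side. Without the mts library of set A, the mts value was 0.31 (adjusted p = 0.07). In the Pp2A-29B libraries neither mRpL3 (0.22, SE 0.13, adjusted p = 0.18) nor mRpL35 (0.24, SE 0.12, adjusted p = 0.13) was called.

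Among the 72 members, 3 were called lower in all 4 dsRNA groups, namely mRpS30, mRpL44 and mRpS24. That is 4.17% of the members, against 6.62% of all genes tested. mRpS30 (chromosome X, 15786047 to 15788288, plus strand), the member with the highest counts, stood at 33.0, 27.7 and 26.1 CPM in B-gal and 28.1, 27.8 and 26.0 CPM in Mock. It was at 16.4, 18.1 and 14.8 CPM in IntS4-labelled, 19.9, 21.3 and 17.6 CPM in IntS6-labelled, 21.4, 21.7 and 22.2 CPM in mts and 20.6, 21.6 and 21.8 CPM in Pp2A-29B libraries. All 12 of these libraries lay below the B-gal and Mock ranges. The log2 fold changes were -0.81 (SE 0.10, adjusted p = 3e-06), -0.56 (SE 0.10, adjusted p = 0.00018), -0.41 (SE 0.10, adjusted p = 0.0027) and -0.44 (SE 0.10, adjusted p = 0.0023).

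mRpL44 was at 7.51, 7.93 and 5.64 CPM in IntS4-labelled and 6.61, 7.18 and 7.31 CPM in IntS6-labelled libraries, beside the PP2A values above. These libraries too were below all B-gal libraries, with log2 fold changes of -0.56 (SE 0.15, adjusted p = 0.0059) and -0.56 (SE 0.15, adjusted p = 0.0057). mRpS24 stood at 4.67, 3.39 and 3.54 CPM in IntS4-labelled, 4.32, 2.85 and 4.15 CPM in IntS6-labelled and 4.14, 3.62 and 4.40 CPM in Pp2A-29B libraries, without overlap with B-gal. Its log2 fold changes were -0.59 (SE 0.20, adjusted p = 0.019), -0.61 (SE 0.20, adjusted p = 0.016) and -0.51 (SE 0.20, adjusted p = 0.047). The calls outside the mts group were fragile. The IntS4-labelled one was lost without the IntS4-labelled library of set B (-0.50) or C (-0.54) or the B-gal library of set C (-0.51). The IntS6-labelled one was lost without the IntS6-labelled library of set B (-0.45) or the B-gal library of set C (-0.53). The Pp2A-29B one was lost without the Pp2A-29B library of set A (-0.53), B (-0.44) or C (-0.58), without the B-gal library of set B (-0.51) or C (-0.43), with DESeq2 as the test (adjusted p = 0.057) or for the size factors (0.052), and with no filter on low counts (0.082).

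Set directly against each other, the IntS6-labelled and IntS4-labelled groups gave no called member (0 higher and 0 lower of 72 by edgeR, 1 at an unadjusted p under 0.05, and 0 by DESeq2). The background there was 2.53% higher and 4.01% lower, and the median over members was 0.01. Their libraries did not overlap for 4 members above and 2 below, against 11.4% and 13.3% of all genes. Between Pp2A-29B and mts, 2 members were called higher and 0 lower, with a background of 4.81% higher and 4.94% lower and a median of 0.01. The Pp2A-29B libraries were all above the mts libraries for 12 members and all below for 4, against 15.5% and 15.1% of all genes. With the replicate block, by which libraries of the same set are paired, 4 were called higher. Those called without it were mRpS9 (1.16, SE 0.27, adjusted p = 0.012) and mRpS24 (0.88, SE 0.22, adjusted p = 0.02), whose Pp2A-29B libraries were all above the mts libraries. The count was 1 without the Pp2A-29B library of set A or the mts library of set B, and mRpS24 was the gene lost in each case (0.87 and 0.68).

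The contrast between the mean of the PP2A groups and the mean of the Integrator-labelled groups uses no control library. In it 28 members were called higher in the PP2A groups and 4 lower, against a background of 26.0% higher and 33.6% lower. The share higher (38.9%) was above the background and the share lower (5.56%) far under it, and the median was 0.26 against -0.05 for all genes. The medians within sets A, B and C were 0.12, 0.19 and 0.26. Over all libraries left out in turn, 24 to 28 members were higher and 4 to 6 lower. Both subunits took part, with 17 higher and 3 lower of 47 mRpL genes and 11 higher and 1 lower of 25 mRpS genes. All 6 PP2A libraries lay above all 6 Integrator-labelled libraries for 12 members and below them for 2, against 13.5% and 19.7% of all genes.

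**Figure D4:**
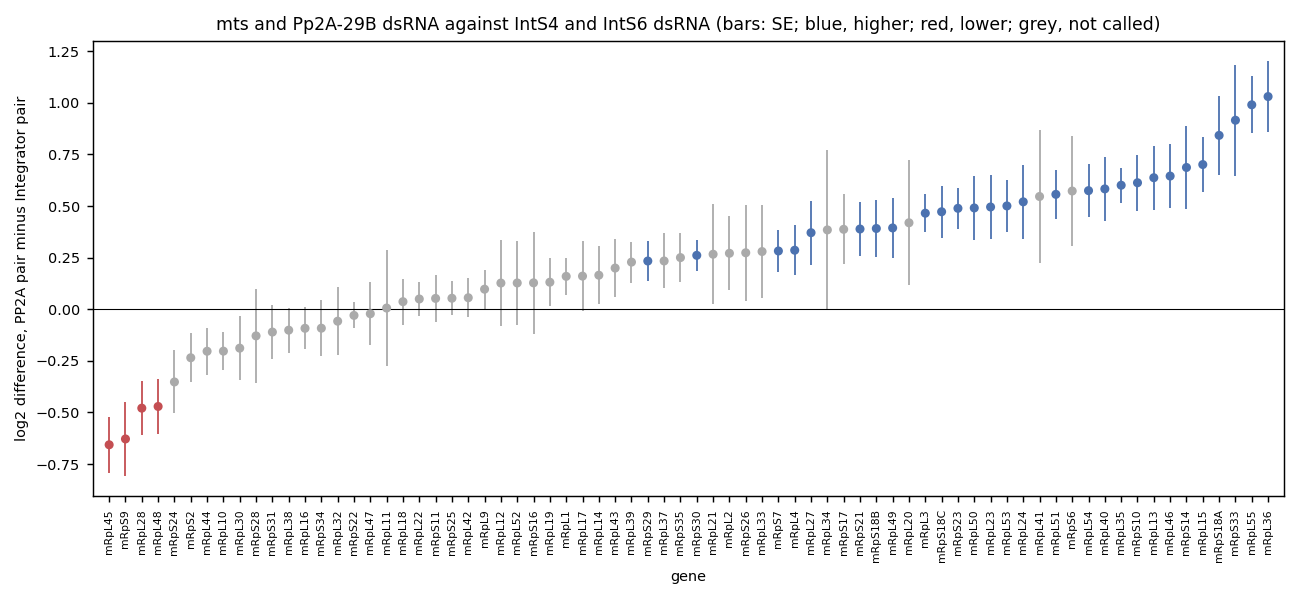
log2 difference between the PP2A groups and the Integrator-labelled groups (vertical axis) for each of the 72 genes, ordered by value (horizontal axis); bars are SE, blue and red mark the 28 higher and 4 lower genes with an adjusted p under 0.05. Values run from -0.66 (mRpL45) to 1.03 (mRpL36), with 55 of 72 above 0.

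The smallest adjusted p among the higher members were those of mRpL55, mRpL35, mRpL36 and mRpL15. mRpL55 was at 4.88, 3.67 and 4.05 CPM in mts and 6.49, 6.66 and 5.83 CPM in Pp2A-29B libraries, above all 6 Integrator-labelled values given before, a difference of 0.99 (SE 0.14, adjusted p = 5.6e-06). mRpL35 was at 11.1, 9.75 and 10.1 CPM in Pp2A-29B and 6.93, 7.78 and 8.33 CPM in IntS4-labelled libraries, and all 6 PP2A libraries were again the higher (0.60, SE 0.09, adjusted p = 7.8e-06). For mRpL36, at 1.97, 2.02 and 0.984 CPM in IntS4-labelled and 2.30, 1.63 and 1.45 CPM in IntS6-labelled libraries, the difference was 1.03 (SE 0.17, adjusted p = 4e-05), without overlap. mRpL15 (chromosome 3L, 20435110 to 20436209, minus strand), of a bacterial large-subunit family, showed the same separation. It stood at 2.92, 3.39 and 2.03 CPM in IntS4-labelled, 3.75, 3.59 and 3.69 CPM in IntS6-labelled, 4.11, 6.28 and 5.58 CPM in mts and 5.13, 5.21 and 5.11 CPM in Pp2A-29B libraries (0.70, SE 0.13, adjusted p = 0.0002). Its B-gal libraries, at 5.39, 4.71 and 4.34 CPM, were called different from the IntS4-labelled ones (-0.78, SE 0.19, adjusted p = 0.0027) and from no other dsRNA group. The other 24 higher members, from the largest value to the smallest, were mRpS33, mRpS18A, mRpS14, mRpL46, mRpL13, mRpS10, mRpL40, mRpL54, mRpL51, mRpL24, mRpL53, mRpL23, mRpL50, mRpS23, mRpS18C, mRpL3, mRpL49, mRpS18B, mRpS21, mRpL27, mRpL4, mRpS7, mRpS30 and mRpS29, at 0.92 to 0.23.

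The 4 members lower in the PP2A groups were mRpL45, mRpS9, mRpL28 and mRpL48. mRpL45 (chromosome 3R, 22618492 to 22619826, plus strand), which in mammals lies at the tunnel exit and helps to hold the ribosome at the inner membrane, was at 13.1, 11.3 and 9.18 CPM in IntS4-labelled, 9.75, 8.07 and 12.8 CPM in IntS6-labelled, 7.58, 6.99 and 6.42 CPM in mts and 6.18, 5.54 and 7.96 CPM in Pp2A-29B libraries. The 6 PP2A libraries were below the 6 others (-0.66, SE 0.14, adjusted p = 0.0004), while no group differed from B-gal (10.6, 8.18 and 8.57 CPM) by the test. mRpL48, at 3.36, 3.69 and 3.41 CPM in IntS4-labelled and 3.81, 4.88 and 4.61 CPM in IntS6-labelled libraries, was also without overlap (-0.47, SE 0.13, adjusted p = 0.0047). mRpS9 stood at 6.64, 5.61 and 4.66 and 6.89, 3.66 and 8.82 CPM in the IntS4-labelled and IntS6-labelled libraries, and only its mts libraries were below them (-0.63, SE 0.18, adjusted p = 0.0053). mRpL28, at 12.7, 15.2 and 19.4 CPM in mts and 11.9, 11.1 and 16.0 CPM in Pp2A-29B libraries, overlapped the Integrator-labelled range (-0.48, SE 0.13, adjusted p = 0.0043).

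Of the 72 members, 28 were called lower and 4 higher in at least 1 dsRNA group, with 1 (mRpL35) counted under both, and 41 were called in none. Of all genes tested, 37.9% were lower and 42.3% higher in at least 1 of these groups and 25.5% were called in none, so the members' share lower (38.9%) was near the background, that higher (5.56%) was far under it and that called in none (56.9%) was above it. mRpL10, of the factor-recruiting stalk, stood at 14.7, 15.7 and 18.5 CPM in B-gal and between 14.0 and 20.6 CPM in the 12 libraries of the dsRNA groups, with log2 fold changes from -0.10 to 0.15 (SE 0.13). mRpL12, the protein that mRpL10 anchors, was at 10.1, 6.87 and 5.12 CPM in B-gal, and between 4.45 and 9.26 CPM in the dsRNA groups, within the B-gal range but for the lowest values, and its SE was 0.29. mRpL42 had log2 fold changes from -0.13 to 0.05 (SE 0.13 or 0.14). Over all members the median SE in a comparison with B-gal was 0.19 on the log2 scale, beside medians of the change from -0.06 to -0.32.

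The members differed in their pattern from the genes of the cytosolic ribosome and of oxidative phosphorylation as far as counts and medians describe it, with no test of the lists. Of 68 tested nuclear genes of oxidative phosphorylation, 50 were lower and 2 higher with IntS4-labelled dsRNA and 44 and 1 with IntS6-labelled dsRNA, at medians of -0.61 and -0.52. With mts and Pp2A-29B dsRNA they had 8 and 10 lower and 6 and 1 higher, at 0.04 and -0.14. Their shares lower in the 4 groups were 73.5, 64.7, 11.8 and 14.7%, against 20.2, 19.3, 24.8 and 17.8% of all genes. The shares higher were 2.94, 1.47, 8.82 and 1.47%, against 27.0, 26.4, 26.6 and 21.0%. Of 86 tested cytosolic ribosomal protein genes, 14, 44, 57 and 64 were lower and 0 higher in the IntS4-labelled, IntS6-labelled, mts and Pp2A-29B groups, with medians of -0.18, -0.38, -0.52 and -0.53. Here the shares lower were 16.3, 51.2, 66.3 and 74.4%, beside the same background. In the contrast of the PP2A with the Integrator-labelled groups, 52 oxidative phosphorylation genes were higher and 3 lower (median 0.51), and 1 cytosolic ribosomal protein gene was higher and 37 lower (median -0.22). The median of the mitochondrial ribosomal protein genes, 0.26, lay between them. In this contrast, 76.5% of the oxidative phosphorylation genes were higher and 4.41% lower. For the cytosolic ribosomal protein genes the shares were 1.16% and 43.0%, and for all genes 26.0% and 33.6%.

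**Figure D5:**
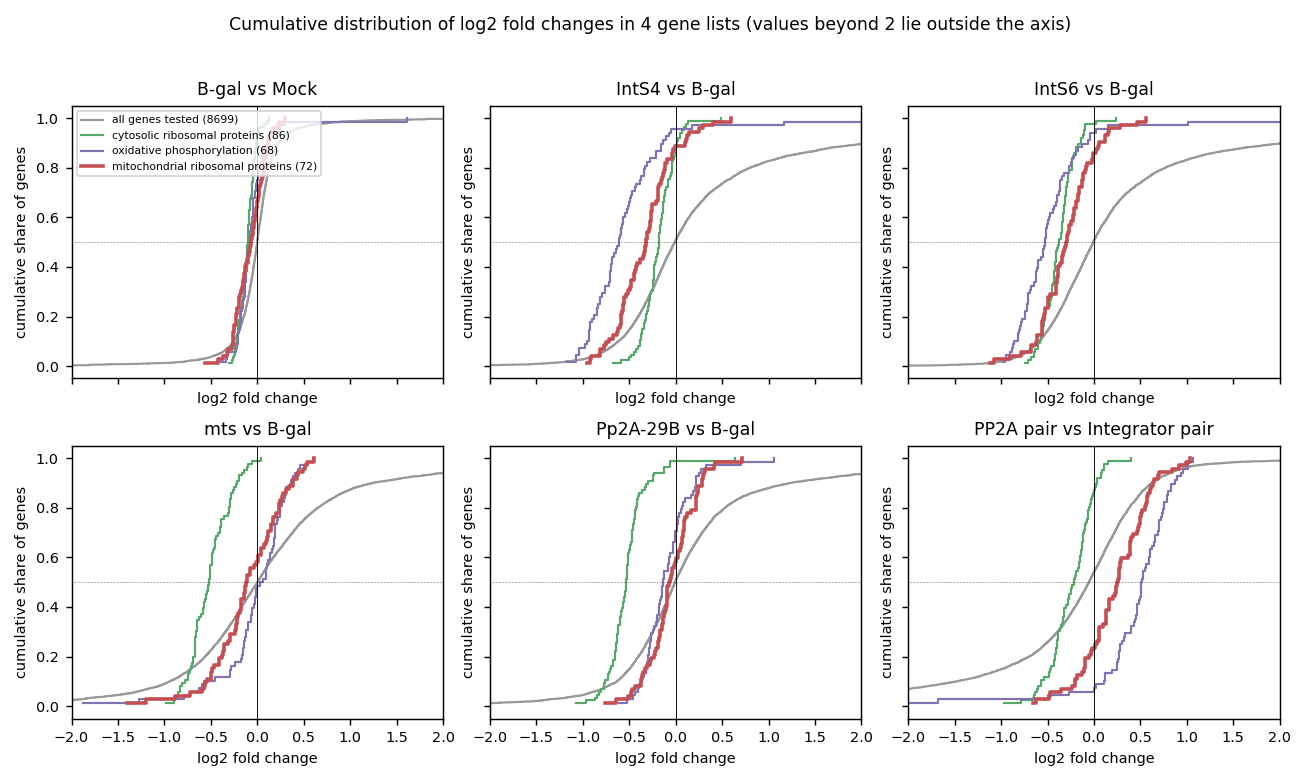
Cumulative share of genes (vertical axes) at or below a log2 fold change (horizontal axes) for the 72 members, 86 cytosolic ribosomal protein genes, 68 oxidative phosphorylation genes and all 8699 genes tested, in 6 comparisons. The members' curve crosses 0.5 at -0.32 and -0.30 in the Integrator-labelled groups and at -0.12 and -0.06 in the PP2A groups.

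Among 46 other genes of mitochondrial gene expression, 8 were lower and 2 higher in the IntS4-labelled group, 9 and 1 in the IntS6-labelled group, 13 and 2 with mts and 9 and 1 with Pp2A-29B dsRNA. The shares lower, 17.4, 19.6, 28.3 and 19.6%, were near those of all genes (20.2, 19.3, 24.8 and 17.8%), and the shares higher, 4.35, 2.17, 4.35 and 2.17%, were under them. Both ribosomal proteins with other names had values below 0 in the Integrator-labelled groups. bonsai was at 13.8, 11.7 and 10.8 CPM in B-gal, 6.20, 6.12 and 6.69 CPM in IntS4-labelled, 8.52, 7.86 and 6.32 CPM in IntS6-labelled, 9.19, 7.27 and 8.70 CPM in mts and 9.95, 9.22 and 10.6 CPM in Pp2A-29B libraries. Only the Pp2A-29B group was not called (-0.28, SE 0.14, adjusted p = 0.14), and the others were at -0.93 (SE 0.15, adjusted p = 4.5e-05), -0.67 (SE 0.15, adjusted p = 0.001) and -0.52 (SE 0.15, adjusted p = 0.0064). tko stood at 5.46, 4.83 and 6.57 CPM in B-gal and was not called in any dsRNA group, with log2 fold changes of -0.33, -0.35, -0.11 and 0.04, in the order used above. The last pair changed sign on leaving out a library. Of 9 translation factors, only mEFG1, the elongation factor that moves the ribosome along the message, was called against B-gal, in the IntS4-labelled (-0.77, SE 0.11, adjusted p = 1.1e-05) and IntS6-labelled (-0.49, SE 0.11, adjusted p = 0.001) groups.

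SerRS-m, which charges mitochondrial serine tRNAs, had the lowest value of the 46 genes in both Integrator-labelled groups. It stood at 7.78, 9.25 and 7.68 CPM in B-gal, 2.85, 2.73 and 2.16 CPM in IntS4-labelled and 1.74, 2.10 and 1.91 CPM in IntS6-labelled libraries. The groups were far apart, at 31.3% and 23.3% of B-gal, with log2 fold changes of -1.67 (SE 0.16, adjusted p = 5.6e-08) and -2.11 (SE 0.16, adjusted p = 5e-09). Of the 16 mitochondrial aminoacyl-tRNA synthetase genes, 2, 2, 2 and 5 were lower in the 4 groups. These shares, 12.5, 12.5, 12.5 and 31.25%, stand against 20.2, 19.3, 24.8 and 17.8% of all genes. LeuRS-m was higher with mts dsRNA (0.36, SE 0.15, adjusted p = 0.046), a call lost without the mts library of set A (0.33) or C (0.24), without the B-gal library of set A (0.29) or B (0.34) and in a fit of the compared groups only. TyrRS-m was lower with Pp2A-29B dsRNA (-0.64, SE 0.19, adjusted p = 0.014), a call lost without the Pp2A-29B library of set A or B (-0.57 in each case) or the B-gal library of set A (-0.47) and in a fit of the compared groups only. Between Pp2A-29B and mts, CysRS-m (-0.70, SE 0.17, adjusted p = 0.018) and AlaRS-m (-0.42, SE 0.12, adjusted p = 0.035) were lower with Pp2A-29B dsRNA. The CysRS-m call was lost without the Pp2A-29B library of set A (-0.61) or the mts library of set A (-0.71) or C (-0.61), and that of AlaRS-m without any 1 of the 6 Pp2A-29B and mts libraries except Pp2A-29B set C (-0.45 to -0.35) and in a fit of the compared groups only. PheRS-m was lower in the PP2A than in the Integrator-labelled groups (-0.41, SE 0.10, adjusted p = 0.0023).

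TFAM, which packages mitochondrial DNA and helps to start its transcription, was at 21.0, 18.3 and 15.4 CPM in B-gal, 9.56, 10.3 and 10.5 CPM in IntS4-labelled and 11.6, 10.9 and 10.8 CPM in IntS6-labelled libraries. All 6 Integrator-labelled libraries were below B-gal, and it fell in both groups, by the log2 values -0.85 (SE 0.11, adjusted p = 3.6e-06) and -0.71 (SE 0.11, adjusted p = 2.7e-05), and with mts dsRNA (-0.49, SE 0.11, adjusted p = 0.0011).

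PolrMT, the mitochondrial RNA polymerase, fell with mts (-0.70, SE 0.14, adjusted p = 0.00043) and Pp2A-29B dsRNA (-0.61, SE 0.14, adjusted p = 0.0019). mTerf3, a regulator of mitochondrial transcription and ribosome assembly, fell with mts dsRNA (-1.32, SE 0.30, adjusted p = 0.0011). mtTFB1, a methyltransferase of the small-subunit ribosomal RNA, was higher in the IntS4-labelled group (0.26, SE 0.08, adjusted p = 0.0075), a call lost with no filter on low counts (adjusted p = 0.11), and lower with Pp2A-29B dsRNA (-0.40, SE 0.08, adjusted p = 0.00042). The protease gene Lon was higher in the IntS4-labelled (0.50, SE 0.09, adjusted p = 0.00026) and IntS6-labelled (0.29, SE 0.09, adjusted p = 0.017) groups. The IntS6-labelled call was lost with no filter on low counts (0.28, adjusted p = 0.072), in a fit of the compared groups only (0.28, adjusted p = 0.064) and without the B-gal library of set B (0.23, adjusted p = 0.092). The gene scu, for a subunit of mitochondrial RNase P, was higher with mts (0.57, SE 0.10, adjusted p = 0.00018) and Pp2A-29B dsRNA (0.51, SE 0.10, adjusted p = 0.00082). Of 5 genes reported to regulate nuclear genes of mitochondria (Myc, ewg, srl, Ets97D and ERR, of which all but Myc were chosen for naming after their values were seen), 2, 3, 4 and 1 were lower. These were ewg and srl in the IntS4-labelled group (-0.78 and -0.70), with Ets97D added in the IntS6-labelled group (-0.45, -0.59 and -0.48), the same genes and Myc with mts dsRNA (-0.45, -0.56 and -0.56), and Myc with Pp2A-29B dsRNA. Myc, a driver of ribosome synthesis, was at 78.8, 85.0 and 82.9 CPM in B-gal, 39.6, 46.8 and 36.7 CPM in mts and 59.0, 72.8 and 46.7 CPM in Pp2A-29B libraries. Its mts libraries were all low, at 49.9% of B-gal (adjusted p = 3.8e-06), its Pp2A-29B value was -0.47 (SE 0.13, adjusted p = 0.0065), and in the IntS4-labelled group it was not called (0.09, SE 0.13, adjusted p = 0.58). Myc was also higher with Pp2A-29B than with mts dsRNA (0.54, SE 0.13, adjusted p = 0.015), a call lost without the Pp2A-29B library of set A (0.54) or B (0.37) or the mts library of set A (0.51) or C (0.46) and in a fit of the compared groups only. In the contrast of the PP2A with the Integrator-labelled groups, SerRS-m (1.36), mEFG1 (0.60), scu (0.46) and TFAM (0.44) were higher and mtTFB1 (-0.49), Myc (-0.71) and Lon (-0.28) lower.

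The RNAs of the mitochondrial ribosome were not called in any comparison. mt:lrRNA stood at 160.1, 101 and 10.0 CPM in the Pp2A-29B libraries, a wide spread between sets of 1 group. mt:srRNA was at 125, 192 and 108 CPM in B-gal and 130.3, 164 and 67.2 CPM in IntS4-labelled libraries. Ribosomal RNA was depleted before sequencing, and the part of that step in these values was not tested.

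Markers of cell type moved with the groups. The 9 haemocyte markers found were all above 0 in B-gal, where srp (122 CPM) and eater (44.2 CPM) were the highest and Hml stood at 2.86 CPM. Their summed level was 218 to 237 CPM in B-gal, 845 to 1234 CPM in IntS4-labelled, 836 to 1127 CPM in IntS6-labelled, 470 to 520 CPM in mts and 398 to 434 CPM in Pp2A-29B libraries, and 8, 8, 4 and 6 of the 9 were higher. The shares higher were 88.9, 88.9, 44.4 and 66.7%, against 27.0, 26.4, 26.6 and 21.0% of all genes. Of 13 markers of neurons, muscle, fat body, follicle cells and germ line, 3 had enough counts to be tested, and Act88F, Lsp2, Yp1 and vas had no count in B-gal. Their sum, most of it from the follicle cell marker tj, was 161 to 191 CPM in B-gal and 46.8 to 134 CPM in the dsRNA groups. The other tested markers did not follow tj: the neuronal marker elav was higher in the IntS4-labelled (0.34, SE 0.13, adjusted p = 0.04) and IntS6-labelled (0.78, SE 0.13, adjusted p = 5.8e-05) groups. The muscle marker Mhc stood at 0.0682, 0.0568 and 0.0556 CPM in B-gal, 2.55, 2.02 and 1.64 CPM in IntS4-labelled, 1.06, 1.22 and 0.987 CPM in IntS6-labelled, 0.193, 0.0706 and 0.338 CPM in mts and 0.247, 0.527 and 0.259 CPM in Pp2A-29B libraries, and was called higher in all of these groups but mts. The part of these shifts in the members' values was not tested.

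Within the members, calls were also described by count level and position. With IntS4-labelled dsRNA, 12 were lower among the 36 members with the higher mean CPM and 9 among the other 36, and with mts dsRNA 11 and 2. As shares these are 33.3 and 25.0%, against 20.2% of all genes, and 30.6 and 5.56%, against 24.8%. The part of the lower counts of the other 36 in this difference was not tested. Of the 52 members that share a start region with an opposite gene, 18, 14, 11 and 6 were lower in the IntS4-labelled, IntS6-labelled, mts and Pp2A-29B groups, and of the other 20 members 3, 2, 2 and 0. As shares these are 34.6, 26.9, 21.2 and 11.5% of the 52 and 15.0, 10.0, 10.0 and 0.0% of the 20, against 20.2, 19.3, 24.8 and 17.8% of all genes, and the difference between the classes was not tested. The 50 tested partner genes of these start regions had 15, 13, 12 and 11 lower (30.0, 26.0, 24.0 and 22.0%) and 7, 7, 13 and 11 higher (14.0, 14.0, 26.0 and 22.0%). mRpL53 cannot be read alone, since all 829 of its exonic bases lie in CG33155 on the same strand, and in the contrast of PP2A with Integrator-labelled groups the values of the pair were 0.50 and 0.48. The same holds in part for mRpL13, which shares 236 exonic bases with CG10602. On opposite strands, mRpS21 shares 228 of its 475 exonic bases with CG8870, at a mean of 0.199 CPM in B-gal and 2.82 CPM in mts libraries. mRpS14 shares 255 of 797 with Naa15-16, which stood at 52.8 CPM in B-gal, against 1.74 CPM for mRpS14. Both members were called higher in that contrast, and whether reads of such pairs were told apart is not known.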

How the data were processed

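RNA-seq of 18 libraries in 6 groups of 3 was used. The authors deposited estimated counts per gene, not normalized, which need not be whole: 90.1% of values lay within 0.005 of a whole number. Per the submitters' processing notes, Trimmomatic 0.39 and featureCounts were used with dm6 and BDGP6. No aligner is named in the sources used here. Counts were rounded to whole numbers, as the planned test needs them. Of 17753 gene IDs, 17626 were in the Ensembl 115 annotation and had a symbol. edgeR 4.0.16 in R 4.3.3 fitted all libraries by quasi-likelihood with TMM factors. Low genes were dropped by filterByExpr (count minimum 10), and 8699 were tested on 12 residual degrees of freedom. The biological coefficient of variation was 0.131. Adjusted p are Benjamini-Hochberg over all genes tested, and each standard error (SE) is the size of the log2 value over the root of its F statistic. Library totals of 13445318 to 19298644 counts set the precision.

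Levels between genes were compared only per kilobase of exon. Gene lists were described by counts and medians. The members were found by name alone, but this gene family, the lists and the comparisons were picked with earlier results of these data known. Library values are given for the members with the most extreme called values in each comparison with B-gal (4 per direction), the smallest adjusted p in the direct comparisons, and those called alike in all 4 dsRNA groups. Of the other mitochondrial genes, the called ones with the smallest adjusted p are named, up to 4 per direction and comparison. Same-letter libraries were taken as paired where the lowest correlation of their deviations from group means was above 0.1: 0.571 (B-gal and Mock), 0.387 (IntS4 and B-gal), 0.248 (IntS6 and B-gal), 0.134 (mts and B-gal) and 0.179 (Pp2A-29B and mts). In the same order, the highest correlation between libraries of different letters was 0.038, 0.186, 0.097, 0.225 and 0.164. For mts and B-gal it exceeded the lowest same-letter value, so the pairing there is uncertain. Alternatives were DESeq2 1.42.0 as test and as size factors, no filter, ribosomal RNA left out, a replicate block, only the groups compared, and each library left out. A planned search for promoter motifs was not run.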

Additional observations from a re-analysis of the deposited data

How the results depend on the processing

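Of 306 recomputed counts and medians, 289 stayed within 1.5 times (counts) or 1 SD (medians) of the reported value. The sign of a median was not part of this rule. As libraries were left out, the members' median ran from -0.0734 to 0.0615 for Pp2A-29B against B-gal. It ran from -0.1656 to 0.0358 for B-gal against Mock and from -0.0086 to 0.0622 between the Integrator-labelled groups. Of 1092 recomputed values of named genes, 1020 kept their call, 68 lost it (56 of these by leaving out a library), 0 gained one and 4 changed sign. Without the filter on low counts, 8 members were lower with mts and 3 with Pp2A-29B dsRNA. With libraries left out in turn, members called higher ran from 0 to 1 in the IntS4-labelled and IntS6-labelled groups, from 1 to 6 with mts, from 0 to 2 with Pp2A-29B dsRNA and from 1 to 3 for Pp2A-29B against mts, whose median ran from -0.0226 to 0.069. Members lower with Pp2A-29B dsRNA ran from 3 to 6. The sign changes among named genes were those of tko, not called against B-gal. Its mts value ran from -0.211 to 0.022, with 0.0 without mts set C and 0.022 without B-gal set C. Its Pp2A-29B value ran from -0.106 to 0.176, with -0.106 without Pp2A-29B set A and -0.057 without B-gal set B. The causes were not tested.

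With the replicate block, 4 members were called higher for Pp2A-29B against mts, where the numbers pair the libraries. In the other comparisons taken as paired the block gave 23 lower (IntS4-labelled), 19 lower (IntS6-labelled) and 15 lower and 4 higher (mts), within 1.5 times of the reported counts. The lowest same-letter correlation was -0.04 for Pp2A-29B and B-gal, 0.05 for the Integrator-labelled groups and -0.05 for the PP2A and Integrator-labelled pairs, so the letters were not taken as pairs there. The block gave 9 lower with Pp2A-29B dsRNA and 30 higher and 6 lower in the last contrast. No scaling moved the median of all genes by over 0.1. Median counts were 53.5 to 105.0 per member and library, and the SE of a member against B-gal after dsRNA ran from 0.088 to 0.53.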
